A study of Mus musculus with 2 samples.

Results

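The mRNAs of the cytosolic ribosomal proteins were followed through the germ and somatic cells of mouse testis, in 2 libraries of single-cell RNA. Members were taken by gene symbol: every Rpl or Rps symbol followed by a number, with an optional letter (a, x or y) or final digit, together with Rplp0, Rplp1, Rplp2 and Rpsa, while Rpl10 and Rpl39 were left out. This gave 75 of the 32285 genes in the files, 31 for the small (40S) subunit and 44 for the large (60S) subunit. The rule uses no expression value. They lie on 19 chromosomes, and 2 of them, Rps4x and Rpl36a, are X-linked.

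One library came from Prm2 +/- testis and is called heterozygous here, and the other came from Prm2 -/- testis and is called knockout. Prm2 encodes protamine 2, one of the small basic proteins that replace histones in the sperm nucleus. Both samples are whole testis, described in the labels as mixed testicular cells, with no strain, age or number of animals given in the sources used here. Each genotype has only 1 library, so no test could be made and a difference between genotypes cannot be told apart from a difference between 2 libraries.

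A cytosolic ribosome holds 1 copy of most ribosomal proteins, so their mRNAs are usually kept at balanced levels and are among the most abundant in growing cells. Many of them begin with a cytosine followed by an unbroken run of pyrimidines, the terminal oligopyrimidine (TOP) start, through which mTOR and the RNA-binding protein LARP1 control their translation. In the male germ line the X chromosome is silenced from pachytene onward, and several X-linked housekeeping genes, ribosomal protein genes among them, have autosomal retrocopies that are expressed in testis.

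The deposited files gave 15210 barcodes and 71364845 UMIs (unique molecular identifiers, 1 per captured mRNA molecule) for the heterozygous library, and 22885 barcodes and 123588822 UMIs for the knockout library. Called doublets were 3.50% of heterozygous and 16.2% of knockout cells, where rates of 12.0% and 18.0% were expected from the numbers of cells. After filtering and removal of these doublets 14498 and 18838 cells were kept, with median depths of 1836 and 3640 UMIs. The protocol names 15000 dissociated testis cells per library, fewer than the 18838 kept in the knockout library. Kept knockout barcodes, called cells here, may thus not all be separate cells. The doublet call in the heterozygous library was not stable: it marked 527 cells with the seed used, and 0 and 1 cell with 2 other random seeds, against 3639, 3673 and 3361 cells in the knockout library. Values with no doublet call in either library are in the closing section. The libraries shared 88 barcode sequences. The cells formed 22 clusters, and 7 classes named from marker genes held at least 50 cells in each library: spermatogonia-, late-spermatocyte-, round-spermatid-, elongating-spermatid-, Sertoli-, Leydig- and interstitial-stromal-like cells. No cluster met the rule for early spermatocytes. Cluster 16 scored highest for that class but had the spermatogonial marker Stra8 among its leading genes, so it stayed unnamed and is given by number. Cluster 5, also unnamed, held 20.5% of heterozygous cells and 0.356% of knockout cells. Prm2 itself was at 37131 CPM (UMI counts scaled to a class total of 1000000) in heterozygous and 13.9 CPM in knockout elongating-spermatid-like cells; the altered part of the gene is not given in the sources used here. In the heterozygous library Prm2 also stood at 3622 CPM in spermatogonia-like and 12949 CPM in Sertoli-like cells, which do not make protamine. The part of such RNA from other cells in the results below was not tested.

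The starts of these genes were read from RefSeq on GRCm38.p6, where 55 of the 75 symbols had an annotated start. Sequences are shown for 5 members with a TOP start, among them the longest run and genes with unlike levels below, and for 4 without one: Rpl31, with the lowest mean ratio between genotypes of those annotated, Rps2, higher in the knockout library in every class, and both X-linked genes. Each line gives 15 bases before and 15 bases from the annotated start, 5′ to 3′ on the gene's strand, with the TOP run in capitals.
Rps6 at chr4:86857353-86857382, minus strand: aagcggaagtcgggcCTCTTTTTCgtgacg
Rpl15 at chr14:18270972-18271001, minus strand: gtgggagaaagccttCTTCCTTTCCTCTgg
Rpl35 at chr2:39005117-39005146, minus strand: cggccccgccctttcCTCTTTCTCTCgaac
Rps15a at chr7:118116133-118116162, minus strand: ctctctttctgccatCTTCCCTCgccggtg
Rpl14 at chr9:120571502-120571531, plus strand: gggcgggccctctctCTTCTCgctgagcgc
Rpl31 at chr1:39367836-39367865, plus strand: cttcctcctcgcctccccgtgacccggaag
Rps2 at chr17:24720048-24720077, plus strand: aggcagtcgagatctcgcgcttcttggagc
Rpl36a at chrX:134585639-134585668, plus strand: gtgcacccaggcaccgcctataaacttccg
Rps4x at chrX:102189377-102189406, minus strand: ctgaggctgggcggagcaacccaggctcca

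A TOP start was counted where the annotated first base was C and the next 4 bases were all C or T, on the gene's strand. It was found at 13 of the 55 members (23.6%, exact Clopper-Pearson 95% interval 13.2% to 37.0%) and at 2.97% of the 26970 other genes with an annotated start. With a start allowed within 5 bases of the annotated one the shares were 47.3% and 21.1%, and within 20 bases 81.8% and 53.3%. The longest run among the sequences shown was the 13 bases of Rpl15. A missing run says only that these letters are not at the annotated position.

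Ribosomal protein mRNAs took the largest share of the transcriptome in spermatogonia-like cells, the dividing stem and progenitor cells of the germ line, and a smaller share in every later germ class. They made up 11.9% of heterozygous and 9.02% of knockout UMIs in spermatogonia-like cells. The share was 4.74% and 3.72% in late-spermatocyte-like cells, 4.47% and 3.57% in round-spermatid-like cells, and 3.98% and 3.36% in elongating-spermatid-like cells. Exact 95% intervals on these shares, which like all intervals here cover counting error only, were within 0.1 percentage point of the value. Clusters 16 and 15, unnamed and closest in score to early spermatocytes, lay between: 7.94% and 5.42% in cluster 16, and 7.02% and 5.48% in cluster 15.

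Among somatic classes the share was 8.08% in heterozygous and 7.73% in knockout Leydig-like cells, the source of testosterone, and 7.73% and 5.33% in interstitial-stromal-like cells. Sertoli-like cells, the supporting cells of the tubule, were lower at 5.35% and 3.74%. Protamine and transition protein mRNAs took 7.31% and 6.07% of the UMIs in these Sertoli-like cells against 4.03% and 0.580% in Leydig-like cells; their part in the lower share was not tested.

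**Figure D1:**
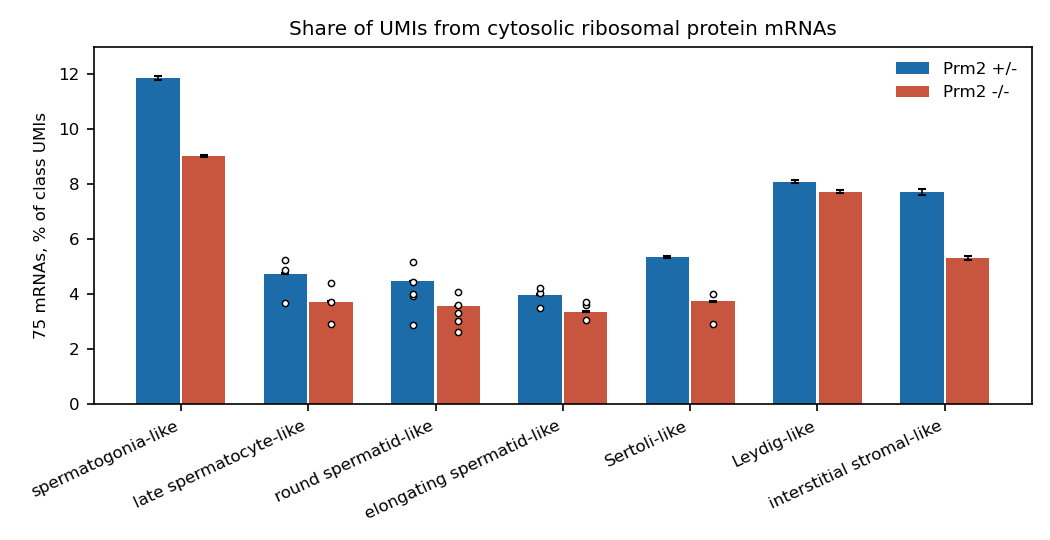
Bars give the 75 mRNAs as a percentage of all UMIs of a class (y axis, percent) in each genotype, black bars are exact 95% intervals for counting error, and open circles are the clusters of a class with at least 50 cells in that library, where there is more than 1. Spermatogonia-like cells stand highest in both libraries (11.9% and 9.02%), and the knockout bar is the lower of each pair.

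The lower share along the germ line arose mostly at the first step. From spermatogonia-like to late-spermatocyte-like cells all 74 members tested were at a lower CPM in both libraries (background: 53% of 5720 heterozygous and 54.3% of 5795 knockout genes tested were lower). The median member had a log2 ratio of -1.43 (heterozygous library) and -1.34 (knockout library), beside -0.15 and -0.19 for all genes tested. In both libraries 49 members were at least 2-fold lower, against a background of 34.4% and 32.5%. With TMM factors, which scale a pair of profiles by the bulk of their genes and here moved every ratio by 0.64 and 0.56, 64 and 67 of 75 members were still lower. These counts use no count minimum, and the share of all genes lower under TMM factors was not counted.

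From late-spermatocyte-like to round-spermatid-like cells the members moved little, with median log2 ratios of -0.09 and -0.08 beside -0.19 and -0.22 for all genes. From round- to elongating-spermatid-like cells the medians were -0.26 and -0.13 for members and -1.37 and -0.86 for all genes tested. Protamine and transition protein mRNAs made up 20.3% of heterozygous and 12.9% of knockout UMIs in elongating-spermatid-like cells, and the CPM of other genes is lower by that share. Across the whole span, spermatogonia- to elongating-spermatid-like, 72 of 74 members (heterozygous) and 73 of 74 (knockout) were lower, against 67.2% and 67.6% of all genes. The members' medians of -1.84 and -1.55 were close to the -1.91 and -1.59 of all genes. TMM factors shifted these ratios by 2.26 and 1.68, and under them only 29 and 34 of 75 members were lower, so the direction over the whole span depends on the scaling. The shift raises all genes alike, and their share lower under it was not counted. Members were counted here without the count minimum. Rps20, below, was higher in elongating-spermatid-like cells under both scalings.

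**Figure D2:**
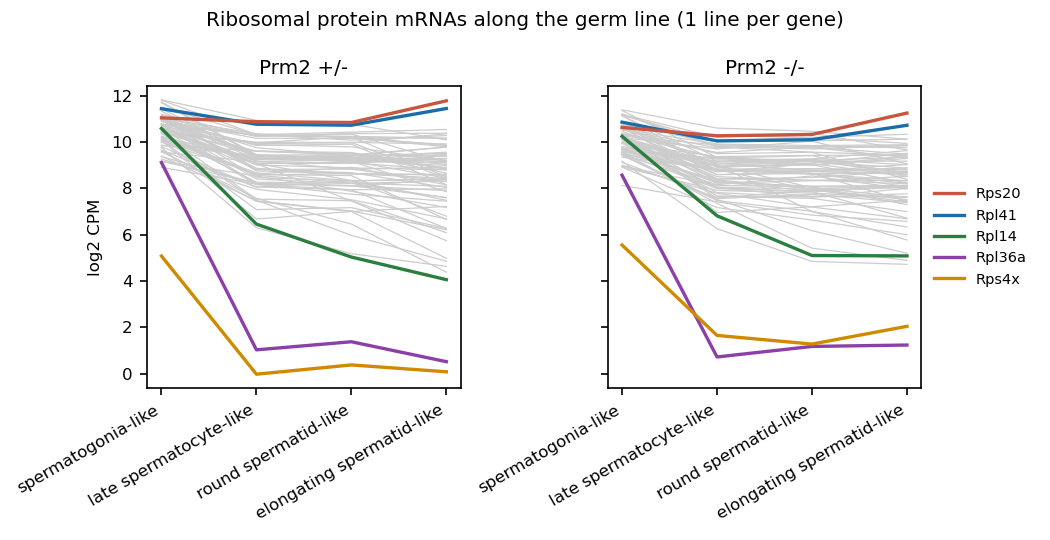
Each line is 1 ribosomal protein mRNA, with its level in log2 CPM (y axis) in 4 germ cell classes (x axis) of the heterozygous (left) and knockout (right) library, and 5 genes are coloured. Most lines drop at the first step and then run level, Rps20 ends higher than it began, and the X-linked Rpl36a and Rps4x drop furthest at the first step.

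Members differed from each other in how far their level changed over the germ line. Rps20, a protein of the 40S head (gene at chr4:3831334-3835665 on GRCm38, minus strand), was the member least like the median pattern, with Pearson's r of -0.11 over 7 classes in both libraries, given as a description. It went from 2104 CPM in spermatogonia-like to 1876, 1831 and 3500 CPM in late-spermatocyte-, round-spermatid- and elongating-spermatid-like cells of the heterozygous library. In the knockout library it went from 1581 to 1230, 1280 and 2428 CPM. Its log2 ratio over the whole span was 0.73 (95% interval 0.67 to 0.80) and 0.62 (0.57 to 0.67), the only member above 0 in both libraries.

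Rpl41, which encodes the smallest ribosomal protein, held its level, at 2764 CPM in spermatogonia-like and 2781 CPM in elongating-spermatid-like heterozygous cells, and 1848 and 1685 CPM in knockout cells. Rpl36 likewise went from 1357 to 1309 CPM and from 817 to 791 CPM. Rpl11, whose protein also binds the p53 regulator MDM2, and Rpl37 came next, with log2 ratios over the span of -0.46 and -0.54 (mean of both libraries). CPM are not divided by mRNA length because each molecule is counted once at its 3′ end, but reads shared with copies can lower a gene's count, so levels of different genes are not ranked here.

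At the other end, Rpl14, of the 60S subunit, went from 1533 CPM in spermatogonia-like to 87.8, 32.8 and 16.7 CPM in the 3 later classes of the heterozygous library, and from 1211 to 113, 34.3 and 33.9 CPM in the knockout library. Rps3, which sits at the mRNA entry channel of the 40S subunit, went from 1156 to 28.9 CPM and from 753 to 29.7 CPM over the whole span. Rpl10a went from 866 to 24.8 CPM and from 574 to 26.3 CPM. Rpl4 went from 764 to 20.9 CPM and from 700 to 36.7 CPM. Proteins of the same particle thus had mRNAs that differed in their fold over these classes by more than 4 on the log2 scale in both libraries, and 40S and 60S members had similar medians (-1.86 and -1.78 in the heterozygous, -1.56 and -1.55 in the knockout library).

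The X-linked members were near 0 in late-spermatocyte-, round-spermatid- and elongating-spermatid-like cells. Rpl36a (60S; chrX:134585654-134588062, plus strand) was at 554 CPM in heterozygous and 379 CPM in knockout spermatogonia-like cells, and at 2.05 CPM (29 UMIs) and 1.65 CPM (31 UMIs) in late-spermatocyte-like cells. Round-spermatid-like cells had 2.61 and 2.27 CPM, and elongating-spermatid-like cells 1.44 and 2.36 CPM, so the gene did not return after meiosis in either library. Beside the median of the autosomal members over the same step, Rpl36a was lower by a log2 difference of -6.70 (heterozygous library) and -6.54 (knockout library). It was well represented in Leydig-like cells, at 338 and 402 CPM. In the unnamed clusters between these classes it was at 195 and 102 CPM (cluster 16) and at 2.82 and 3.33 CPM (cluster 15).

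Rps4x (40S; chrX:102184941-102189394, minus strand) was already low in spermatogonia-like cells, at 33.8 CPM (35 UMIs) and 47.0 CPM (102 UMIs), while it reached 737 and 975 CPM in Leydig-like and 910 and 695 CPM in interstitial-stromal-like cells. Its log2 ratio of spermatogonia- over Leydig-like cells, -4.45 and -4.38, was the lowest of all members in each library. In late-spermatocyte-like cells it was at 0.988 CPM (14 UMIs) and 3.15 CPM (59 UMIs), and it stayed under 5 CPM in both spermatid classes. Clusters 16 and 15 had 20.5 and 17.5 CPM, and 0.847 and 1.94 CPM. Beside the autosomal median its change from spermatogonia- to late-spermatocyte-like cells was -3.71 and -2.60. Sertoli-like cells had 70.8 and 53.4 CPM of Rps4x and 36.7 and 28.8 CPM of Rpl36a, both far under the levels in Leydig- and interstitial-stromal-like cells. The elongating-spermatid markers summed to 70589 and 69550 CPM in Sertoli-like cells. Their sums were 38097.5 and 7705 CPM in Leydig-like and 35901 and 26213 CPM in interstitial-stromal-like cells. The part of germ cell RNA in the Sertoli-like levels was not tested.

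Autosomal copies of members kept other levels. Rpl36al, a copy of Rpl36a at chr12:69182731-69184083 (minus strand), was at 477 and 430 CPM in spermatogonia-like, 423 and 375 CPM in late-spermatocyte-like, and 374 and 327 CPM in round-spermatid-like cells. Its share of the UMIs of the pair went from 46.3% (exact 95% interval 43.3% to 49.3%) to 99.5% (99.3% to 99.7%) in the heterozygous library, and from 53.2% to 99.6% in the knockout library, between spermatogonia- and late-spermatocyte-like cells. It was 91.2% and 90.2% in Sertoli-like, 67.4% and 61.7% in Leydig-like and 55.6% and 53.7% in interstitial-stromal-like cells.

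Rpl22, whose protein binds RNA outside the ribosome as well, and its paralog Rpl22l1 changed places although both are autosomal. Rpl22 was at 1074 and 1201 CPM in spermatogonia-like cells and at 102 and 124 CPM in late-spermatocyte-like cells, while Rpl22l1 went from 213 and 264 CPM to 398 and 409 CPM. The Rpl22l1 share of the pair was 16.5% (14.6% to 18.6%) and 18.0% in spermatogonia-like cells and 79.6% (78.6% to 80.5%) and 76.7% in late-spermatocyte-like cells. In elongating-spermatid-like cells it was back to 41.4% and 50.8%. Rps27l moved the other way: its share of the pair with Rps27 was 40.6% and 46.6% in spermatogonia-like and 7.57% and 14.4% in elongating-spermatid-like cells.

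**Figure D3:**
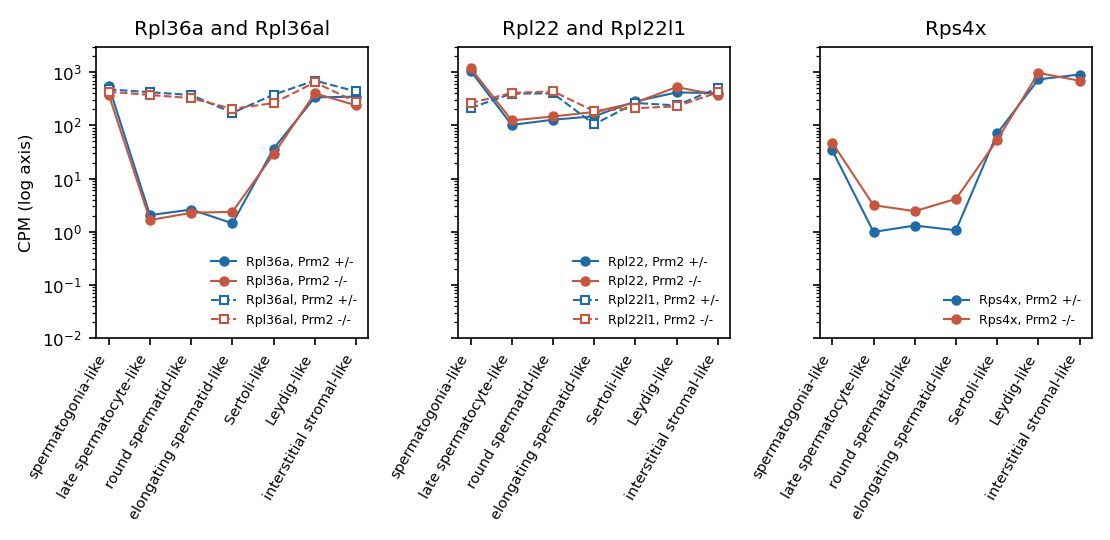
Levels in CPM on a log axis (y) in the 7 cell classes (x) for Rpl36a with Rpl36al, Rpl22 with Rpl22l1, and Rps4x, where filled circles are members and open squares are copies, in both libraries. Rpl36a stands near 2 CPM in the 3 later germ classes while Rpl36al stays above 170 CPM in every class and both libraries, and Rpl22 and Rpl22l1 cross between spermatogonia- and late-spermatocyte-like cells.

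Between genotypes the ribosomal protein mRNAs took a smaller share of the UMIs in the knockout library in all 22 clusters, with a ratio of knockout to heterozygous share from 0.683 to 0.957. The difference was present in spermatogonia-like cells and in the somatic classes as well as in spermatids. Per cell the counts did not all go the same way: spermatogonia-like cells had 558 and 286 ribosomal protein UMIs on average (heterozygous and knockout library), but Sertoli-like cells had 78.5 and 109, and Leydig-like cells 269 and 353. Median UMIs per cell were 4146 and 2761 in spermatogonia-like, 970 and 1798 in Sertoli-like and 1512 and 4144 in Leydig-like cells, so depth moved with these counts; its part in them was not tested.

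Gene by gene, a member or other gene was compared where it had at least 50 CPM in 1 library and 100 UMIs over both. In spermatogonia-like cells 69 of 74 members were lower in the knockout library (background 47.5% of genes), with a median log2 ratio of -0.43 beside 0.03 for all genes tested. In late-spermatocyte-like cells 64 of 73 were lower (background 47.6%), median -0.33 beside 0.02. In round-spermatid-like cells 62 of 71 were lower (background 48.7%), median -0.33 beside 0.01. In Sertoli-like cells 71 of 74 were lower (background 46%), median -0.52 beside 0.05, and in interstitial-stromal-like cells 70 of 75 (background 52.7%), median -0.52 beside -0.03. Clusters 16 and 15 gave 71 of 74 (background 47.8%) and 66 of 73 (background 54.4%).

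Markers of other cell types moved with some of these results. In interstitial-stromal-like cells the 7 markers of peritubular myoid cells, the contractile cells around the tubule, summed to 474 CPM in the heterozygous library, where 2 of them were at 0, and to 3893 CPM in the knockout library. The 8 stromal markers of the class summed to 9102 and 5463 CPM. In spermatogonia-like cells the 13 late-spermatocyte markers summed to 762 and 1471 CPM, and the 12 Sertoli markers to 185 and 506 CPM. Sertoli markers were likewise at 71.5 and 249 CPM in late-spermatocyte-like and 87.9 and 397 CPM in elongating-spermatid-like cells, and were higher in the knockout library in round-spermatid-like cells too. The part of these cells in the lower ratios was not tested.

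In elongating-spermatid-like and Leydig-like cells the median member differed least. In elongating-spermatid-like cells 43 of 69 members were lower (background 28.1%), with a median of -0.18, while all genes tested had a median of 0.29, so that members stood 0.47 under the other genes. With TMM factors, which moved every ratio in this class by -0.56, 64 of 69 were lower. That shift lowers all genes alike, so the gap of 0.47 stays and the 28.1% is no background for the 64. The share of all genes lower under TMM factors was not counted. In Leydig-like cells 43 of 75 members were lower (background 43%), median -0.09 beside 0.11 for all genes tested. That count was 64 with no doublet call and 55 with TMM factors, which moved every ratio in Leydig-like cells by -0.11. The 43% belongs to the main setting, and the share of all genes lower under these alternatives was not counted. The 12 elongating-spermatid markers summed to 38097.5 CPM in heterozygous and 7705 CPM in knockout Leydig-like cells. The part of this RNA in the Leydig-like ratios was not tested.

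The differences were small in size. At least 20% lower were 49 of 74 members in spermatogonia-like cells (background 17.8%), 37 of 73 in late-spermatocyte-like (background 18.2%), 37 of 71 in round-spermatid-like (background 15.7%), 24 of 69 in elongating-spermatid-like (background 8.49%) and 57 of 74 in Sertoli-like cells (background 21.1%). In Leydig-like cells 19 of 75 were so (background 26.6%), and in interstitial-stromal-like cells 58 of 75 (background 29.3%). No member was 2-fold lower in the first 5 of these classes (background 0.49%, 1.12%, 0.763%, 0.922% and 1.24%), and 3 of 75 were in interstitial-stromal-like cells (background 2.83%): Rpl21, Rpl36 and Rpl31. In Leydig-like cells 0 of 75 members were 2-fold lower, where the background was 10.5%. Members not compared for low counts were Rps4x in spermatogonia-like cells, Rps4x and Rpl36a in late-spermatocyte-like cells, these and Rpl14 and Rpl10a in round-spermatid-like cells, these and Rps3 and Rpl4 in elongating-spermatid-like cells, and Rpl36a in Sertoli-like cells.

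**Figure D4:**
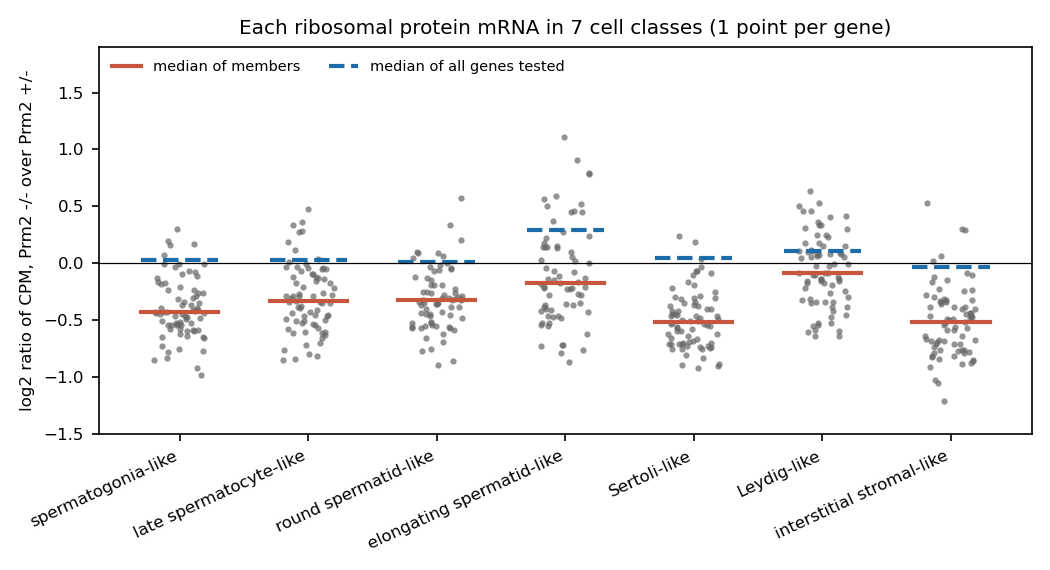
Each point is 1 member's log2 ratio of CPM in the knockout over the heterozygous library (y axis) in a class (x axis), for members above the count minimum. Red lines are medians of members and dashed blue lines medians of all genes tested, and the red line lies below the blue one in all 7 classes, from 0.20 lower in Leydig-like to 0.56 lower in Sertoli-like cells.

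Counting every class whether or not the gene passed the minimum, 39 of the 75 members were below 0 in all 7 classes, 2 were above 0 in all 7, and 34 were of mixed sign. In single classes 28.1% (elongating-spermatid-like) to 52.7% (interstitial-stromal-like) of all genes tested were below 0, but their share in all 7 was not counted. A gene's 7 ratios come from the same 2 libraries and are not independent. Rpl21 of the 60S subunit had the lowest mean, -0.85. It was at 1539 and 864 CPM in spermatogonia-like, 541 and 321 CPM in round-spermatid-like and 635 and 339 CPM in Sertoli-like cells of the heterozygous and knockout library. Rpl31, near the exit of the peptide tunnel, had a mean of -0.83, and was at 214 and 115 CPM in round-spermatid-like cells (log2 ratio -0.90, 95% interval -0.96 to -0.84). Rps15, of the 40S head, was at 1409 and 745 CPM in spermatogonia-like (-0.92, -1.02 to -0.82) and 550 and 291 CPM in Sertoli-like cells (-0.92, -1.05 to -0.79). Rpl36 and Rpl8 had means of -0.76 and -0.69 and no class above -0.53. Rps26 was among the 3 lowest only in Sertoli-like cells, at 639 and 344 CPM (-0.89, -1.01 to -0.78).

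The 2 members above 0 in every class were Rps2 and Rps15a, both of the 40S subunit. Rps2 was at 1083 and 1238 CPM in spermatogonia-like, 135 and 188 CPM in late-spermatocyte-like, 144 and 214 CPM in round-spermatid-like and 77.5 and 167 CPM in elongating-spermatid-like cells. The last pair, a log2 ratio of 1.11 (1.01 to 1.20), was the only member 2-fold higher in that class (background 10.3%). Rps15a was at 2088 and 2341 CPM in spermatogonia-like, 599 and 755 CPM in round-spermatid-like and 1091 and 1403 CPM in Leydig-like cells. Rps3a1, Rpl27 and Rpl5 stood above 0 mainly in elongating-spermatid-like cells, at 0.91, 0.78 and 0.79, and in Leydig-like cells, at 0.53, 0.50 and 0.41, the classes with the highest medians of all genes, 0.29 and 0.11. Under TMM factors the 3 ratios in elongating-spermatid-like cells stay above 0.

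The median of 60S members was below that of 40S members in all 7 classes, which share the same genes and libraries. The gap was small beside the spread, and the quartile ranges overlapped in every class (spermatogonia-like: -0.54 to -0.11 for 40S, -0.59 to -0.26 for 60S). Medians for 40S and 60S members were -0.41 and -0.45 in spermatogonia-like and -0.29 and -0.35 in late-spermatocyte-like cells. They were -0.32 and -0.35 in round-spermatid-like and -0.18 and -0.19 in elongating-spermatid-like cells. They were -0.44 and -0.54 in Sertoli-like, -0.01 and -0.11 in Leydig-like, and -0.46 and -0.59 in interstitial-stromal-like cells. The 13 members with a TOP start at the annotated position had a median of their mean ratios of -0.18 and the 42 without one -0.37, with ranges of -0.56 to 0.31 and -0.83 to 0.66, so the first lies within the second. For base content each gene was represented by its shortest annotated protein-coding transcript, which can be incomplete (489 bases for Rps3 and 511 for Rpl10a). Across the 75 members the mean ratio went down with the GC content of this transcript (Spearman's rho -0.35) and of its last 300 bases (-0.30). It did not go down with the transcript's length (0.08). For the ratio in round-spermatid-like cells alone, the values over members were -0.24, -0.20 and -0.0014. Those over the 3475 genes tested there with such a transcript were -0.10, -0.16 and -0.02. These correlations are across genes of the same 2 libraries and are given as a description.

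**Figure D5:**
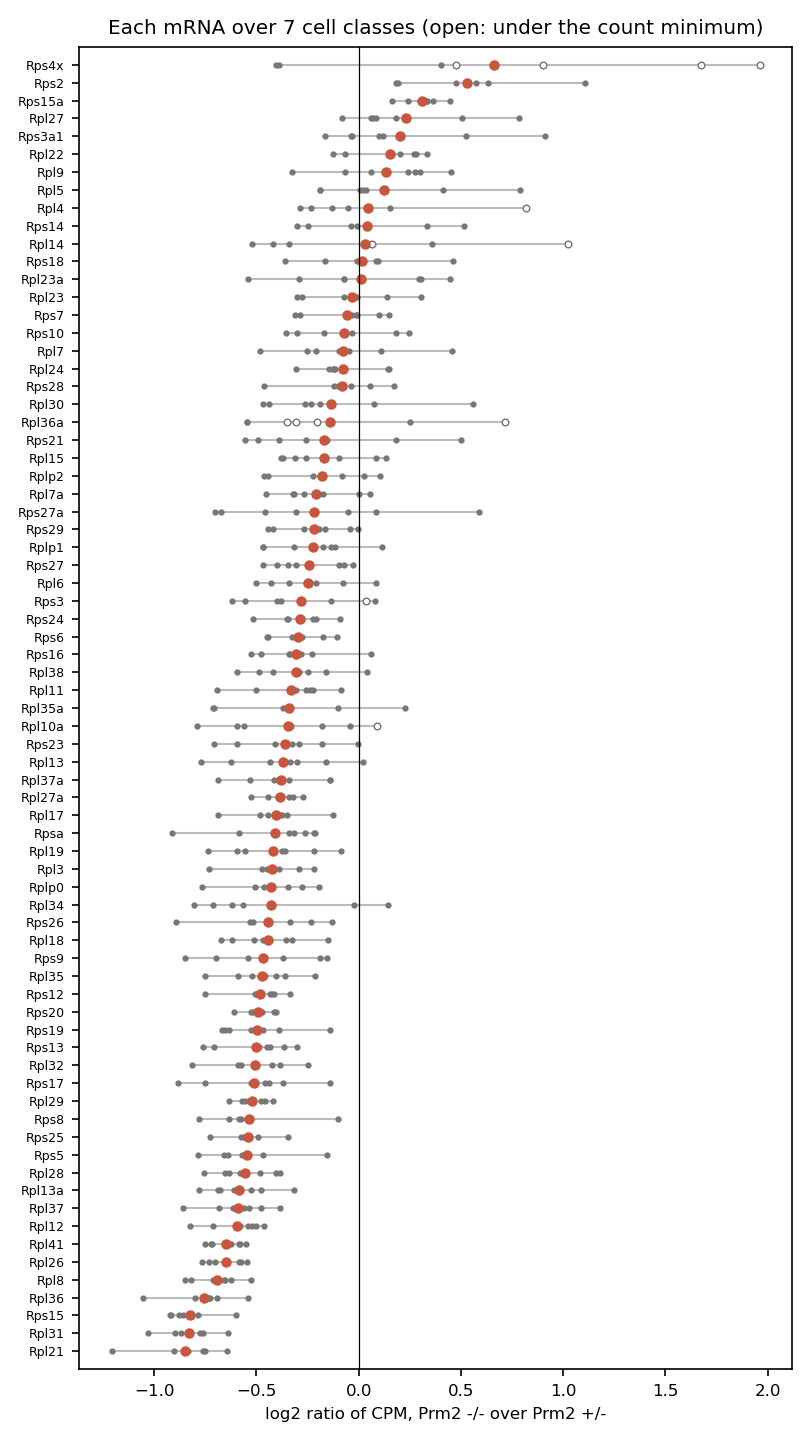
For 73 members (y axis, ordered by mean) small points give the log2 ratio of knockout over heterozygous CPM (x axis) in each of 7 classes, open where the gene was under the count minimum, and red points give the mean. The means run from -0.85 for Rpl21 to 0.53 for Rps2, apart from Rps4x at 0.66, whose ratios in germ cells rest on few UMIs.

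Some ratios depend on near-identical copies, between which reads cannot be assigned with certainty. Rps18 itself was nearly equal in both libraries, at 1218 and 1210 CPM in spermatogonia-like and 382 and 385 CPM in late-spermatocyte-like cells. Its copy Gm10260 (chr13:97760072-97760632, 95.6% identical) was at 225 CPM and 72.2 CPM in these classes of the heterozygous library, and had 0 and 2 UMIs in the knockout library. In the heterozygous library Gm10260 held between 15.2% and 16.8% of the pair's UMIs in 6 of the 7 classes, and 10.3% in interstitial-stromal-like cells. A further copy, Gm11361, was at 26.1 CPM in heterozygous spermatogonia-like cells and had 0 UMIs in knockout ones, which allows up to 1.38 CPM (3 counts of the class total). With both copies added, the log2 ratio of Rps18 in spermatogonia-like cells moved from -0.01 to -0.28 (-0.37 to -0.19), and in late-spermatocyte-like cells from 0.01 to -0.27. Adding Gm10076, 99.0% identical to Rpl41, changed the ratio of Rpl41 in spermatogonia-like cells from -0.58 to -0.66. For the other members with a copy in the files (Rpl35, Rpl36a, Rpl9, Rplp2 and Rps27) adding it moved no ratio by more than 0.1. The match to Rplp2 was a transcript of Wdr89, a gene not named as a ribosomal protein gene. In the annotation 60 members have further copies that were not analysed here.

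Genes of related function did not all share the lower ratio. Of ribosomal proteins whose names fall outside the symbol rule, Fau, a ubiquitin-like fusion with a 40S protein, had ratios from -0.44 to -0.57 in the 7 classes. Rack1, a scaffold protein on the 40S head, had -0.64 in spermatogonia-like and 0.05 in Leydig-like cells. Among 13 translation factors that are also TOP mRNAs, 7 of 13 were lower in spermatogonia-like cells (median -0.02) and 5 of 13 in round-spermatid-like cells (median 0.11), with Eef1a1, which delivers tRNA to the ribosome, at 0.50 and Btf3 at 0.97 in the latter. Ribosome biogenesis factors had 4 of 7 lower in round-spermatid-like cells (median -0.06) and 11 of 21 in spermatogonia-like cells (median -0.17), and TOP and mTOR control genes 6 of 10 lower in spermatogonia-like cells (median -0.12). Mitochondrial ribosomal proteins had 34 of 62 lower in spermatogonia-like (median -0.05) and 19 of 33 in round-spermatid-like cells (median -0.11), but 32 of 36 in Sertoli-like cells (median -0.37).

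The other lists also went separate ways along the germ line. From spermatogonia- to elongating-spermatid-like cells the translation factors had median log2 ratios of -0.77 (heterozygous) and -0.37 (knockout). Ribosome biogenesis factors had -4.34 and -3.68, and mitochondrial ribosomal proteins -2.76 and -2.33, beside the -1.84 and -1.55 of the members and the -1.91 and -1.59 of all genes tested.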

How the data were processed

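The deposited values are UMI counts, and the file headers name Cell Ranger 7.1.0 as their source; in the submitters' processing notes Seurat 4.1.0 and mm10 are named as well. No columns of other samples were present (0). The members and gene lists were chosen with earlier results of these data known. Barcodes needed at least 500 UMIs and 250 genes and no more than 20% mitochondrial UMIs, and doublets (Scrublet in scanpy 1.11.5) and cells with over 1% hemoglobin UMIs were removed. Both libraries were clustered together (2000 variable genes without ribosomal protein genes, 30 components, 20 neighbours, Leiden resolution 1). Clusters took the name of a marker set, with the ending "like". Class sums in each library were scaled to CPM. Shares have exact Clopper-Pearson and ratios exact conditional binomial intervals at 95%. A 2-fold difference, or one of 20% down or 25% up, is a rule of size. edgeR 4.0.16 gave TMM factors only. The ratio script was tested on simulated counts. Positions come from GENCODE M21 on GRCm38, and copies were searched with blastn 2.17.0 (at least 90% identity over 80% of the mRNA). Named members are, in each class, the 3 highest and 3 lowest ratios, the 5 largest and smallest changes along the germ line, the 5 least like the median pattern, X-linked members and members with copies; genes of the other lists are those with large ratios or on which a count turns. Depth was 71364845 and 123588822 UMIs. Some members and list genes are not reported here by name.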

Additional observations from a re-analysis of the deposited data

Results flagged for a closer look

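With 1 library per genotype the following members, among those reported by name, were at least 25% higher in the knockout library in one cell class and at least 20% lower in another, and the difference between the classes was not tested. Rpl14 had a log2 ratio of knockout over heterozygous CPM of 0.36 (95% interval 0.26 to 0.46, counting error only) in late-spermatocyte-like and -0.52 (-0.89 to -0.15) in interstitial-stromal-like cells. Rpl23a had 0.45 (0.34 to 0.55) in elongating-spermatid-like and -0.54 (-0.71 to -0.37) in Sertoli-like cells. TMM factors moved every ratio in elongating-spermatid-like cells by -0.56, which takes its value there below 0. Rpl9 had 0.45 (0.31 to 0.60) in Leydig-like and -0.33 (-0.62 to -0.02) in interstitial-stromal-like cells. Rps4x had 0.40 (0.26 to 0.55) in Leydig-like and -0.41 (-0.74 to -0.07) in Sertoli-like cells. Rps18 had 0.46 (0.33 to 0.59) in Leydig-like and -0.36 (-0.66 to -0.05) in interstitial-stromal-like cells, without its copies.

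The next 4 members were higher in elongating-spermatid-like cells, where all genes tested had a median of 0.29. Rpl30 had 0.56 there and -0.47 in Sertoli-like cells, and Rps27a had 0.59 and -0.70 in the same classes. Rpl7 had 0.46 and Rps21 0.50, with -0.48 and -0.56 in interstitial-stromal-like cells. The intervals of these 4 do not include 0, but they cover counting error only. The TMM shift of -0.56 in elongating-spermatid-like cells takes Rpl7 and Rps21 below 0 there and brings Rpl30 and Rps27a close to 0.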

How the results depend on the processing

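The alternatives were other cell filters, no doublet call, ribosomal protein genes among the variable genes, scaling within library, Leiden resolutions of 0.5 and 2, a total without protamine, transition protein and mitochondrial genes, TMM factors, cells or clusters weighted equally, and minimums of 10 and 200 CPM. Added after seeing the data were cells with at least 5000 UMIs, centring on the median of all genes, adding near-identical copies, and all alternatives for Leydig- and interstitial-stromal-like cells. The count of members lower in the knockout library stayed within 1.5 times the main count in spermatogonia-, Leydig- and interstitial-stromal-like cells under 14 alternatives each and in late-spermatocyte-, round-spermatid-, elongating-spermatid- and Sertoli-like cells under 15 each. No median of members reversed in these 7 classes, but the medians moved. They ran from -0.74 to -0.12 in elongating-spermatid-like, -0.65 to -0.30 in Sertoli-like and -0.29 to -0.03 in Leydig-like cells, with narrower ranges in the other classes. The share of members lower ran from 90.5% to 95.9% in spermatogonia-like, 78.1% to 92.3% in late-spermatocyte-like, 77.5% to 90.5% in round-spermatid-like, 58.8% to 92.8% in elongating-spermatid-like, 78.1% to 97.3% in Sertoli-like, 53.3% to 85.3% in Leydig-like and 90.7% to 96.0% in interstitial-stromal-like cells. No class was named early-spermatocyte-like at the main setting, so that planned count has no value, no spermatogonia-like class was named at resolution 0.5, and too few Leydig- and interstitial-stromal-like cells had 5000 UMIs. No paired analysis was possible because there is 1 library per genotype, and leaving out a library leaves no comparison.

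Members lower from spermatogonia- to elongating-spermatid-like cells in both libraries numbered 73 of 75, and 29 with TMM factors. The share of all genes lower in both libraries was not counted under either scaling. The change of Rpl36a beside autosomal members was -7.48 (at least 1000 UMIs) and -5.71 (cells weighted equally) in the heterozygous library, and -5.67 (no doublet call) and -5.48 (cells weighted equally) in the knockout library. For Rps4x it was -2.53 with cells weighted equally in the heterozygous library. In the knockout library it was -3.44 (at least 1000 UMIs), -3.24 (no doublet call), -3.26 (ribosomal protein genes among variable genes), -3.21 (scaled within library), -3.50 (resolution 2) and -1.73 (cells weighted equally). The Rpl36al share in late-spermatocyte-like cells was 99.7% (at least 1000 UMIs) and 99.1% (cells weighted equally) in the heterozygous library, and 99.2% (no doublet call and cells weighted equally) in the knockout library. TOP starts were found at 47.3% of members within 5 bases and 81.8% within 20 bases. The cause of these changes was not tested.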
